A study of Mus musculus with 56 samples.

Results

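A total of 673 ChIP-seq peaks carried Bcl6 as their gene name, among 1610519 peaks assigned to 20352 genes in the 56 peak lists of the study. Members were taken from the gene-name column alone, peak by peak, for every antibody and condition. Bcl6 was selected on its peak scores in these lists, which were already known, so the levels and differences given here are a description and carry no test.

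BCL6 is a zinc finger repressor with a BTB/POZ domain that recruits the corepressors NCoR and BCOR, and through them histone deacetylases, to its target genes. It is best known from germinal centre B cells, and in macrophages it restrains inflammatory genes. The DNA motif that it binds resembles that of the STAT factors, among them STAT6, the factor that IL-4 activates.

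The cells were bone marrow-derived macrophages (BMDMs) of wild-type C57BL/6 mice aged 8 to 12 weeks, differentiated for 6 days with L929 cell supernatant as the source of M-CSF. In 32 samples, untreated BMDMs were compared with BMDMs given IL-4 (20 ng/ml) for 1 hr, with antibodies to H3K27Ac, p300, PU.1, HDAC1, HDAC2, HDAC3 and RNA polymerase II phosphorylated at serine 5 (RNAPII-pS5) or serine 2 (RNAPII-pS2). In the other 24 samples, BMDMs were left without pretreatment or pretreated with IL-4 for 24 hr, and then left without LPS or given LPS (100 ng/ml) for 1 hr, with antibodies to RNAPII-pS5, RNAPII-pS2 and the NF-kB subunit p65. Each of the 28 groups held 2 samples, which the study calls independent biological replicates, and the labels do not say whether they came from separate cultures or separate animals.

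The lists held 8440 to 71027 peaks, and since they give no read totals, the sequencing depth behind a score is unknown. The list of p300 in untreated replicate 1 stood apart, with 44787 peaks and a median score of 11.0, against 66710 to 69360 peaks and medians of 18.2 to 19.2 in the other p300 lists. For RNAPII-pS2 with 1 hr IL-4, the names of the peaks in all 4 lists give the treatment that is opposite to the label of the sample, and the labels were followed. The labels and the study's methods give the HDAC3 antibody the catalogue number of the H3K27Ac antibody, while the study's reagent list gives HDAC3 a number of its own. All 7 macrophage markers checked (Cd68, Csf1r, Adgre1, Itgam, Lyz2, Mertk and Spi1) had an RNAPII-pS5 or H3K27Ac peak within 2 kb of their start in at least 1 of 16 lists, a distance chosen after seeing that 3 of the 7 had one in the narrower promoter class. Within 2 kb, 0 of 5 B cell, 0 of 4 T cell and 0 of 3 fibroblast markers had a peak, while 1 of 3 dendritic cell markers (Xcr1) and 2 of 4 neutrophil markers (S100a8 and S100a9) did.

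Most of the Bcl6 peaks lay far upstream of the gene. They spread over 226 kb of chromosome 16 (mm10), from 25.6 kb downstream of the Bcl6 start site (position 23988612, as implied by the distances in the lists) to 199.9 kb upstream of it. Of the 673 peaks, 562 (83.5%) were annotated as intergenic, 100 (14.9%) as intronic, 9 as promoter and 2 as transcription termination site. RefSeq places Bcl6 on the minus strand at chr16:23965050-23988866. The next protein-coding gene upstream of its start is Lpp, 405 kb away, with non-coding genes in between. The gene name of a peak comes from its nearest start site and does not show which gene the site regulates.

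Merged over all antibodies, the peaks formed 38 sites, 32 of them upstream and 6 downstream of the start. The 11 sites that held peaks of 8 or 9 antibodies carried 469 peaks (69.7%), and lay 4.8, 11.2, 23.6, 39.0, 74.1, 87.9, 114.5, 132.4, 148.2, 163.0 and 177.1 kb upstream. Peaks of all 9 antibodies were found at 7 of these sites. At the other end, 13 sites had peaks of a single antibody and 6 had a peak in 1 sample. The annotated promoter site (chr16:23988231-23989473) had peaks of 4 antibodies, PU.1, p300, RNAPII-pS5 and RNAPII-pS2. A further site 7.2 kb downstream lay in intron 1, at the start of a shorter RefSeq transcript, and had peaks of p65 and PU.1. Of the 38 sites, 15 overlapped another GENCODE gene, in most cases AC169509.1, a transcribed pseudogene that covers all sites from 140.5 kb upstream onwards.

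**Figure D1:**
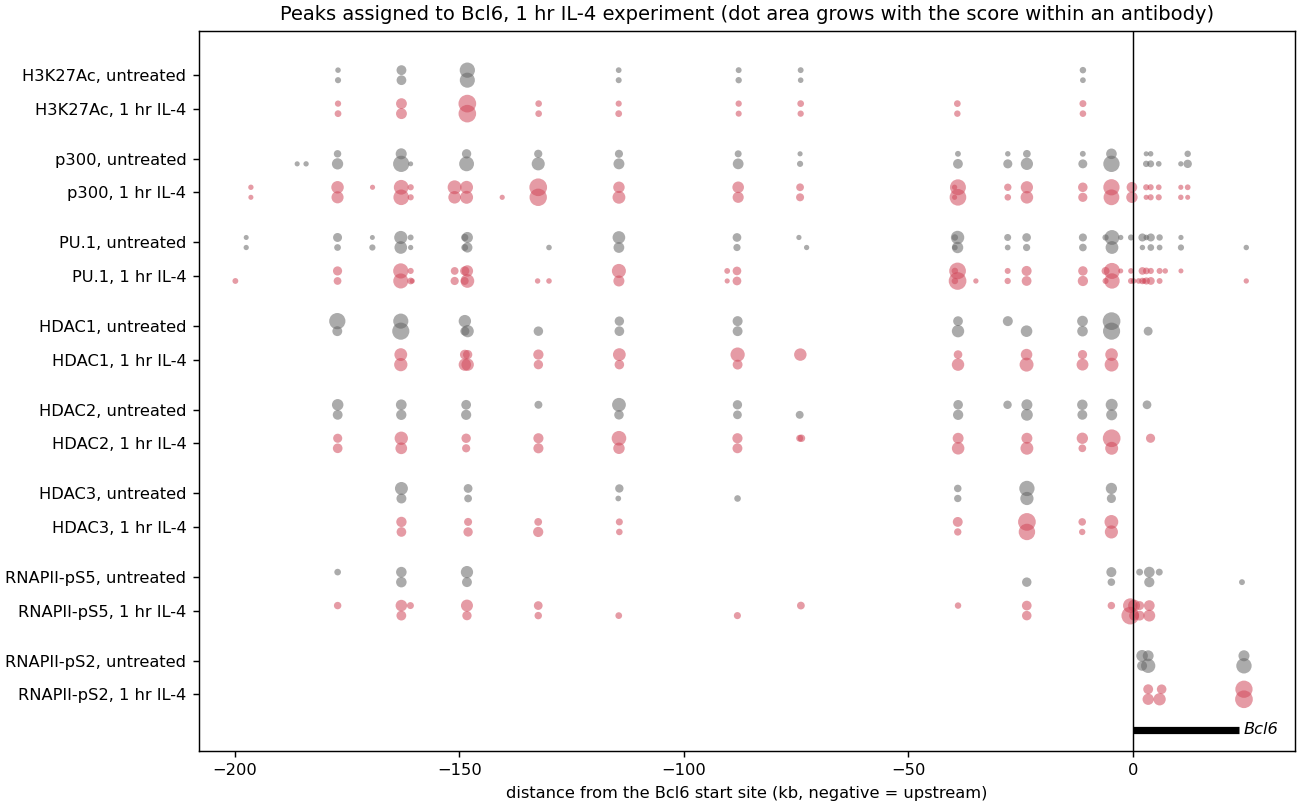
Peaks assigned to Bcl6 in the 1 hr IL-4 experiment, by distance from the start site in kb (x axis, negative is upstream), with 1 row of dots for each sample of each antibody and treatment. Dot area grows with the peak score within an antibody, grey is untreated and red is 1 hr IL-4, and the black bar is the gene. RNAPII-pS5 and p300 dots appear at the start site in both IL-4 samples and in neither untreated sample.

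The following sequences are the middle 200 bases of 8 regions picked from those described here, and of a PU.1 region of 1 sample that lies within the p65 region of intron 1. They do not represent all regions, whose motif shares are given below. They are written 5′ to 3′ on the minus strand, the strand of Bcl6, from build GRCm38.p6 (mm10). Capitals mark matches on either strand to 5 motifs: TTC and GAA separated by 3 or by 4 unspecified bases (the STAT forms), GAGGAA (the PU.1 core), TGANTCA (AP-1) and the usual NF-kB consensus, where overlapping matches run together.

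Bcl6 promoter, PU.1 region (chr16:23988950-23989149): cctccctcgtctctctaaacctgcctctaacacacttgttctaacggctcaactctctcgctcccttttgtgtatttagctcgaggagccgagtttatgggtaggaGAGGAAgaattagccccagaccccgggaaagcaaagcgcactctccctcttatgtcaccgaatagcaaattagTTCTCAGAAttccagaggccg
intron 1, upstream of the other RefSeq start (chr16:23981316-23981515): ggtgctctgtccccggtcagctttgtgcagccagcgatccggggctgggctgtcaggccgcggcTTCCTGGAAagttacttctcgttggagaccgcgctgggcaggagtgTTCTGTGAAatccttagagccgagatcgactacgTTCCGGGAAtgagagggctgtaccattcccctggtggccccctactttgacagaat
39.0 kb upstream, p300 region (chr16:24027488-24027687): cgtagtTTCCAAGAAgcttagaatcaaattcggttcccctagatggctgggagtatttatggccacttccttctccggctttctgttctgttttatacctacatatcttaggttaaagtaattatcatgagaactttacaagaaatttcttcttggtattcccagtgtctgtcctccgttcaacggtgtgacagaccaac
132.4 kb upstream, p300 region (chr16:24120970-24121169): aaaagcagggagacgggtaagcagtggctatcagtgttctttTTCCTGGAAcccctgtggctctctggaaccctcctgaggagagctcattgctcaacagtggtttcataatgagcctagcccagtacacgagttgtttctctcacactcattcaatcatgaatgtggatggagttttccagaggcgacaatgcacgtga
151.1 kb upstream, p300 region (chr16:24139599-24139798): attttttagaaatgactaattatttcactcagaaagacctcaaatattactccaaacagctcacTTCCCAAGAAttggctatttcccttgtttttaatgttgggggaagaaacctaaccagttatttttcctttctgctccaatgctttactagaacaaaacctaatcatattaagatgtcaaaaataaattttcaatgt
11.2 kb upstream, p65 region (chr16:23999693-23999892): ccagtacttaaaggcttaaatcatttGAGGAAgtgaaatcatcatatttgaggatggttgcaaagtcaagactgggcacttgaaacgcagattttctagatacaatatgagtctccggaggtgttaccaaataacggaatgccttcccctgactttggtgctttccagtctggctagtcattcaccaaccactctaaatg
87.9 kb upstream, p65 region (chr16:24076333-24076532): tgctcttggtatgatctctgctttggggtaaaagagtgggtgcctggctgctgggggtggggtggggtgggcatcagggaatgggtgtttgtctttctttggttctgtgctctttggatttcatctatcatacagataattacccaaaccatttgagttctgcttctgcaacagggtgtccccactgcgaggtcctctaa
104.4 kb upstream, p65 region (chr16:24092883-24093082): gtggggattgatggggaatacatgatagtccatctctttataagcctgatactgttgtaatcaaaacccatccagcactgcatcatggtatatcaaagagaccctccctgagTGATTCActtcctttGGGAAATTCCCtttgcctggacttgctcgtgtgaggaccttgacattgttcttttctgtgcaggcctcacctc
199.5 kb upstream, p65 region (chr16:24188029-24188228): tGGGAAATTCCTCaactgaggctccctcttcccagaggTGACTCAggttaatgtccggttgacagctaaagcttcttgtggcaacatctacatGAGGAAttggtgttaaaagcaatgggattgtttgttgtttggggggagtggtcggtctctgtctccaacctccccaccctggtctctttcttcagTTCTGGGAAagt

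The promoter window held a STAT match with 3 bases between the arms, TTCTCAGAA, and a PU.1 core. The middle 200 bases of the promoter p300 region (chr16:23988743-23988942), nearer to the start, held none of the 5 motifs. In intron 1 there were 3 STAT matches of this form (TTCCTGGAA, TTCTGTGAA and TTCCGGGAA). The p300 windows 39.0 and 132.4 kb upstream each held 1 (TTCCAAGAA and TTCCTGGAA), and that at 151.1 kb held the form with 4 bases, TTCCCAAGAA. NF-kB matches were present in the p65 windows 104.4 and 199.5 kb upstream, and the p65 window at 87.9 kb held none of the 5 motifs. For scale, among 32851 RefSeq promoters of 300 bases, 8.30% held a STAT match with 3 bases, 6.95% one with 4 bases, 28.3% a PU.1 core, 7.81% an AP-1 match and 4.51% an NF-kB match.

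Over all Bcl6 regions of an antibody, STAT matches with 3 bases occurred in 4 of 26 p300 windows (15.4%, against 8.28% of all p300 regions), in 5 of 22 p65 windows (22.7%, against 8.47%) and in 4 of 10 HDAC3 windows (40%, against 10.2%). In PU.1 windows they occurred in 4 of 37 (10.8%, against 15.3%). With windows of 300 bp, the PU.1 share was 29.7% against 20.9%, now above that of all regions, and the p300 share 30.8% against 11.5%. The form with 4 bases occurred in 2 of 26 p300 windows (7.69%, against 10.05%), 1 of 22 p65 windows (4.55%, against 8.26%), 1 of 10 HDAC3 windows (10%, against 11.4%) and 3 of 37 PU.1 windows (8.11%, against 5.81%). The PU.1 core was present in 15 of 37 PU.1 windows (40.5%, against 49.2%), and the NF-kB consensus in 3 of 22 p65 windows (13.6%, against 10.6%). A match describes the letters of the window and not a bound factor.

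In the untreated BMDMs of the 1 hr IL-4 experiment, the summed score of the Bcl6 peaks placed the gene near the top of the PU.1, p300 and HDAC lists, but lower in the RNAPII lists. By rank among the genes of a list, Bcl6 stood at the upper 0.585 and 0.681% for PU.1, 1.61 and 2.03% for p300, 0.712 and 2.70% for HDAC1, 1.58 and 1.77% for HDAC2, 1.97 and 2.13% for HDAC3, and 21.2 and 21.7% for H3K27Ac. With RNAPII-pS5, the form of initiating polymerase, it stood at 37.2 and 39.1%, and with RNAPII-pS2, that of elongating polymerase, at 34.5 and 42.9%. In the untreated BMDMs of the LPS experiment, which had other lists, these ranks were 2.67 and 5.19% for RNAPII-pS5 and 1.23 and 1.36% for RNAPII-pS2, and scores were compared within an experiment alone. The sum grows with the number of peaks, and in the 1 hr IL-4 experiment Bcl6 had 24 and 25 PU.1 peaks but 3 and 3 RNAPII-pS2 peaks.

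The comparison of 1 hr IL-4 with untreated BMDMs asks how the locus responds to the immediate IL-4 signal. At the start site, RNAPII-pS5 and p300 had peaks in both IL-4 samples and in neither untreated sample. The 2 RNAPII-pS5 regions of the promoter had scores of 27.16 and 41.75, and of 17.52 and 11.11, after IL-4. The promoter p300 region had scores of 58.73 and 69.01. PU.1, the lineage-determining factor of macrophages, had a promoter peak of 8.82 in 1 of 2 untreated samples and of 6.18 and 8.27 after IL-4, so its groups overlapped. A further PU.1 region of the promoter had a peak of 5.33 in 1 IL-4 sample. H3K27Ac, HDAC1, HDAC2 and HDAC3 had no peak at the promoter in any sample.

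Scores were compared on the log2 scale after subtracting, sample by sample, the median over the regions that had a peak in all samples of that antibody and experiment, and a region was called when both samples of 1 group lay above both of the other and the means of these centred values differed by at least 1. A missing peak entered at the lowest score of the set. Values for regions with no peak in a whole group are given as scores without a fold. A fold is a ratio of peak scores and not of binding, since scores other than H3K27Ac appear to be log significances. With 2 samples against 2, the smallest p of an exact test is 0.333, and none was run.

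Of 10 RNAPII-pS5 regions tested, 4 were called higher after IL-4 and 1 lower, against 9.29% and 11.8% of all RNAPII-pS5 regions. Beside the 2 at the promoter, the region 2.1 kb into the gene went from 3.92 in 1 of 2 untreated samples to 8.55 and 11.17, and the region 132.4 kb upstream from no peak to 8.09 and 5.11. The region called lower lay 4.8 kb upstream, with 11.52 and 5.37 in untreated samples and 5.13 in 1 of 2 IL-4 samples. The polymerase signal thus differed in both directions within 5 kb of the start. The median log2 difference of the 10 regions was 0.92, against 0.02 over all regions. It includes the 2 promoter regions and that at 132.4 kb, whose differences rest on the score given to a missing peak.

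For p300, a histone acetyltransferase of active enhancers, 8 of 22 regions were called higher and 1 lower, against 22.4% and 8.39% of all p300 regions. The region 151.1 kb upstream had no peak in untreated samples and scores of 109.12 and 86.59 after IL-4. At 39.0 kb the scores were 9.16 and 47.98 in untreated and 147.73 and 162.18 in IL-4 samples, a 4.64-fold difference after centring. At 132.4 kb they were 30.13 and 95.36, and 185.17 and 178.06, the highest p300 scores of the locus, a 2.13-fold difference. At these 3 distal sites the IL-4 samples lay above both untreated samples. At 74.1 kb the scores went from 4.34 and 11.61 to 25.53 and 28.15. The other regions called higher were low-scoring, at 39.7, 160.9 and 196.4 kb, with scores from 3.88 to 11.96 after IL-4. The region called lower lay 12.2 kb downstream in intron 3, with 13.67 and 31.98 in untreated and 8.51 and 3.65 in IL-4 samples. With the shorter p300 list of untreated replicate 1 left out, an alternative chosen after seeing the data, the same 9 regions were called and the region 27.9 kb upstream joined them as lower.

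H3K27Ac, the acetylation mark of active chromatin, was called higher in 2 of 9 regions, against 7.51% of all H3K27Ac regions, and lower in none, against 4.75%. Both had no peak in untreated samples, with 24.5 and 21.2 at 39.0 kb and 23.2 and 23.6 at 132.4 kb after IL-4. The region with the highest H3K27Ac score, 148.2 kb upstream, went from 205.1 and 199.9 to 282.4 and 278.8 without being called, since the centred difference of 0.52 lay below 1. In 8 of 9 regions both IL-4 samples lay above both untreated samples, the exception being 87.9 kb. In 2 of these 8, at 39.0 and 132.4 kb, the untreated samples had no peak. The share of all H3K27Ac regions separated in this way was not counted. The median log2 difference was 0.64 against -0.02 over all regions.

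PU.1 was called higher in 3 of 27 regions and lower in 3, against 12.1% and 10.5% of all PU.1 regions. At 151.1 kb, where p300 also gained a peak, PU.1 had no peak in untreated samples and 20.89 and 24.43 after IL-4. The region 3.0 kb downstream went from 6.06 in 1 of 2 untreated samples to 13.61 and 16.12, and the region at 90.4 kb from no peak to 7.14 and 3.57. Called lower were regions 10.7 kb downstream (3.9 and 9.63, then 2.68 in 1 of 2 samples), and 169.4 and 197.5 kb upstream, where the scores of 2.51 and 9.78 and of 2.87 and 4.15 gave way to no peak. The highest PU.1 scores after IL-4, 133.3 and 150.7, were at 39.0 kb, where the untreated samples had 81.87 and 56.4, a difference of 0.73 on the centred scale that was not called. In untreated samples, the highest PU.1 scores were 103.19 and 73.87 at 4.8 kb, against 122.25 and 111.07 after IL-4.

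The histone deacetylases, which remove acetyl groups from chromatin, had peaks mostly at distal sites that held p300 peaks as well. HDAC1 was called higher in 2 of 11 regions and lower in 1, against 7.47% and 15.8% of all HDAC1 regions. HDAC2 was called higher in 1 of 11, against 13%, and HDAC3 in 2 of 8, against 20.8%. Neither had a region called lower, against 10.7% of all HDAC2 and 8.24% of all HDAC3 regions. All 3 were called higher at 132.4 kb. There HDAC1 went from 4.43 in 1 of 2 untreated samples to 5.41 and 4.29, HDAC2 from 4.11 in 1 of 2 to 7.85 and 7.76, and HDAC3 from no peak to 8.4 and 17.33. HDAC1 was also called higher at 23.6 kb (7.22 in 1 of 2, then 7.17 and 11.06), where as at 132.4 kb its scores overlapped before centring, and lower at 177.1 kb (15.44 and 4.91, then no peak), and HDAC3 higher at 11.2 kb (no peak, then 7.72 and 4.31). The highest deacetylase scores were those of HDAC3 at 23.6 kb, 43.93 and 31.88 in untreated and 60.14 and 51.37 in IL-4 samples, a difference of 0.28. HDAC1 and HDAC2 were highest at 4.8 kb, with 18.52 and 17.26 for HDAC1 in untreated samples and 27.71 and 13.97 for HDAC2 after IL-4, and neither was called there.

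RNAPII-pS2 had few Bcl6 peaks in this experiment. Of 3 regions tested, none was called higher, against 12.2% of all RNAPII-pS2 regions, and 1 was called lower, against 13.2%, at 1.8 kb into the gene (5.45 and 3.8, then no peak). The region beyond the end of the gene, 25.1 kb downstream of the start, had the highest scores, 4.84 and 10.28 in untreated and 13.17 and 13.92 in IL-4 samples, with a centred difference of 0.99, just short of a call. With the treatments exchanged, as the peak names have them, these directions turn.

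Summed over the locus, RNAPII-pS5 was 76.97 and 53.52 in untreated and 158.44 and 133.23 in IL-4 samples, 2.33-fold higher after centring (log2 difference 1.22). This was the sole summed score of Bcl6 called on centred values in this experiment, and 4.32% of genes were called higher for RNAPII-pS5. Its rank among genes went from 37.2 and 39.1% to 4.30 and 6.34%. The H3K27Ac sums were 354.2 and 349.5, then 531.7 and 527.3 (0.60 on the log2 scale). The differences of the other sums were 0.29 for p300, 0.33 for PU.1, 0.35 for HDAC1, 0.21 for HDAC2, 0.15 for HDAC3 and 0.55 for RNAPII-pS2. The HDAC1 groups overlapped, and without centring the HDAC1 difference was -0.11. Without centring the p300 difference was 1.14, past the threshold of 1, with sums of 363.07 and 1033.28 in untreated and 1345.75 and 1360.99 in IL-4 samples, while the summed scores of genes with p300 peaks in all samples shifted by 0.87.

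**Figure D2:**
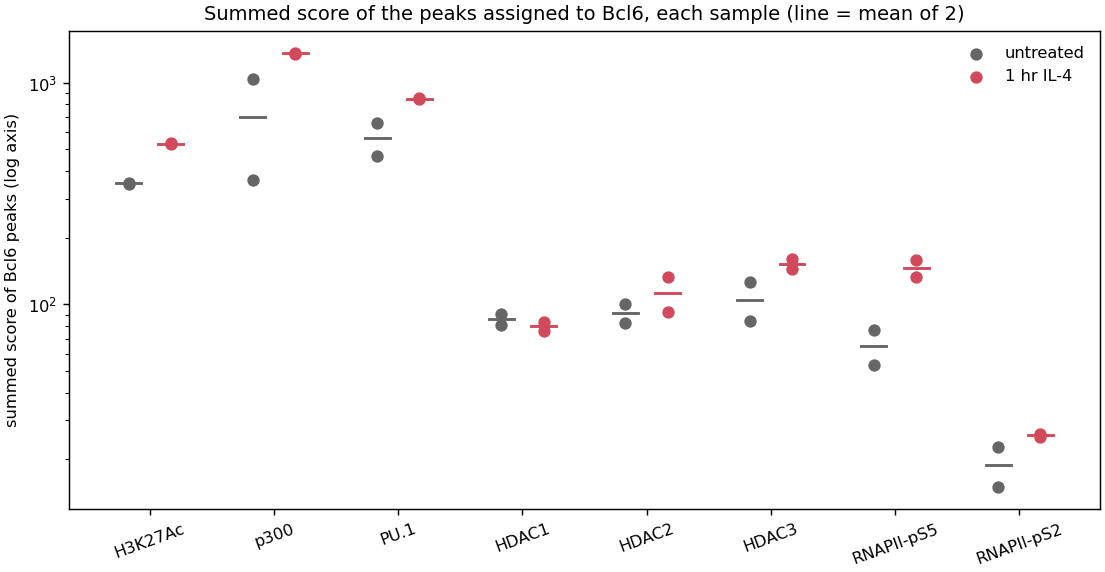
Summed score of the peaks assigned to Bcl6 (y axis, log scale, in the score unit of each antibody) in each of the 2 untreated (grey) and 2 IL-4-treated samples (red), with a line at the mean. The sums are not centred. H3K27Ac, p300, PU.1, HDAC3, RNAPII-pS5 and RNAPII-pS2 lie higher in both IL-4 samples, HDAC1 and HDAC2 overlap, and scores cannot be compared between antibodies.

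In the other experiment, LPS was compared with no LPS, with and without 24 hr of IL-4 beforehand, which asks how IL-4 changes the response of the locus to an inflammatory signal. The contrasts of this experiment share samples, since each group enters 2 of them. LPS shifted the lists as a whole: RNAPII-pS5 lists went from 20803 and 19279 peaks to 14476 and 15349, and p65 lists from 9706 and 9556 to 26305 and 26820. For genes with peaks in all samples, the log2 summed score shifted by -0.32 (RNAPII-pS5), 0.23 (RNAPII-pS2) and 1.67 (p65), and the summed-score differences given here are relative to these shifts.

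LPS without pretreatment was accompanied by higher p65 scores, and by higher scores of both polymerase forms, at several upstream sites of Bcl6. p65 was called higher in 12 of 17 regions and lower in 1, against 53.5% and 9.24% of all p65 regions, so most p65 regions of the series were called higher as well. RNAPII-pS5 was called higher in 6 of 11 regions and lower in 1, against 21.7% and 39%. RNAPII-pS2 was called higher in 7 of 13 and lower in 2, against 29.5% and 29%. The median log2 difference of the Bcl6 regions was 1.00 in RNAPII-pS5 (all regions -0.47), 1.07 in RNAPII-pS2 (-0.11) and 1.49 for p65 (1.14). For each antibody, some of these regions had no peak in a whole group, and their differences rest on the score given to a missing peak.

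Among the Bcl6 peaks of this experiment, the highest p65 and polymerase scores were 11.2 kb upstream. There p65 had 5.64 and 5.57 without treatment, 71.29 and 80.14 with LPS, 16.08 and 6.95 with 24 hr IL-4, and 109.98 and 85.85 with both. RNAPII-pS2 had 11.45 and 8.56 without treatment, 37.72 and 36.6 with LPS, 10.51 and 6.61 with IL-4, and 50.09 and 38.73 with both. RNAPII-pS5 had 7.13 and 6.23, 6.51 and 21.3, 6.67 and 6.18, and 17.4 and 8.25 in the same order. LPS samples lay above samples without LPS for p65 and RNAPII-pS2, with or without IL-4, and among the LPS samples the pretreated ones had the higher scores of both. After centring, these last differences were 0.09 for p65 and 0.30 for RNAPII-pS2 on the log2 scale, and neither was called.

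At 87.9 kb upstream, all 3 antibodies were called higher with LPS both without and after IL-4. p65 had a peak of 4.84 in 1 of 2 untreated samples and of 4.73 in 1 of 2 IL-4 samples, then 42.56 and 43.09 with LPS and 101.95 and 87.54 with both. RNAPII-pS2 had 7.09 and 11.49 without treatment, 7.88 in 1 of 2 samples with IL-4, 34.52 and 34.33 with LPS and 43.62 and 46.68 with both. RNAPII-pS5 had 5.42 in 1 of 2 untreated samples, no peak with IL-4, 13.91 and 6.22 with LPS and 15.15 and 8.67 with both. After centring, the p65 difference between the LPS groups with and without IL-4 was 0.87 on the log2 scale and was not called.

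The site 39.0 kb upstream also gained all 3 with LPS, but its RNAPII-pS2 scores were lower with IL-4. RNAPII-pS2 had 10.71 and 10.12 without treatment, no peak with 24 hr IL-4, 34.7 and 24.41 with LPS, and 8.13 and 11.4 with both. p65 had 5.33 in 1 of 2 untreated samples, 3.87 in 1 of 2 IL-4 samples, 44.46 and 44.33 with LPS and 33.16 and 27.07 with both. RNAPII-pS5 had 5.42 in 1 of 2 untreated samples, no peak with IL-4, 5.97 and 11.0 with LPS and 6.13 and 4.96 with both. RNAPII-pS2 under LPS was thus called lower after IL-4 pretreatment (log2 -1.54), while the p65 difference of -0.84 was not called.

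The site 132.4 kb upstream had the opposite pattern, with higher signal after IL-4. RNAPII-pS2 had 3.18 and 6.19 without treatment, 21.49 and 16.58 with 24 hr IL-4, 11.84 and 9.5 with LPS and 30.53 and 26.55 with both. p65 had no peak without treatment, 10.5 and 18.21 with IL-4 alone, 13.92 and 8.7 with LPS and 46.07 and 36.23 with both. RNAPII-pS5 had no peak without treatment, 4.69 and 5.27 with IL-4, 4.52 in 1 of 2 samples with LPS and 3.9 in 1 of 2 with both. For RNAPII-pS2 and p65, both IL-4 samples lay above both samples without IL-4, in the absence and in the presence of LPS. Over all contrasts and both directions, this Bcl6 site was called for the most antibodies, 8 of 9. The exception was PU.1, which had a peak of 5.14 in 1 IL-4 sample. The antibodies entered unlike numbers of contrasts, and no such count was made for sites of other genes. How unusual it is was therefore not assessed. RNAPII-pS5 was called higher here with IL-4 and lower with LPS after IL-4. Only p300, RNAPII-pS2 and p65 had a call here that held under every change of centring, missing-peak score, list length and sample set.

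At 4.8 kb upstream, LPS was accompanied by higher p65 and lower polymerase scores. p65 went from 9.42 and 11.16 to 44.35 and 43.01 with LPS, and had 13.76 and 6.06 with IL-4 and 33.52 and 34.51 with both. RNAPII-pS2 went from 38.04 and 26.31 to 12.61 and 10.27 with LPS, and had 17.18 and 23.07 with IL-4 and 12.44 in 1 of 2 samples with both. RNAPII-pS5 had 14.3 and 12.63 without treatment, 6.04 in 1 of 2 samples with IL-4, and no peak in the 4 LPS samples. Lower RNAPII-pS5 at this site was therefore called with 1 hr IL-4, 24 hr IL-4 and LPS alike.

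From the promoter to 3.5 kb into the gene, scores with LPS were low, while p65 had higher ones at the shorter transcript's start. RNAPII-pS2 had a promoter peak of 5.98 and 5.16 with LPS alone and none in the other 3 groups, which made it called higher with LPS and called lower with IL-4 under LPS. Within intron 1, RNAPII-pS5 had a region 2.0 kb into the gene with no peak without LPS, 7.93 and 8.2 with LPS and 6.04 and 4.5 with both. Its region 3.3 kb into the gene had no peak without treatment, 6.77 and 6.17 with IL-4, 3.12 and 8.77 with LPS and 3.32 and 7.4 with both. RNAPII-pS2 at 1.7 kb into the gene had no peak without treatment, 3.95 in 1 of 2 samples with IL-4, 4.33 and 3.43 with LPS and 4.66 and 3.59 with both. At 3.5 kb it had no peak without treatment, 6.04 and 6.84 with IL-4, 6.1 in 1 of 2 samples with LPS and 5.39 in 1 of 2 with both. The p65 region 3.0 kb into the gene, called lower with LPS, had 5.33 and 5.2 without treatment, 4.15 in 1 of 2 samples with LPS, 3.7 and 7.64 with IL-4 and 7.81 and 7.97 with both. At the shorter transcript's start, 7.2 kb into the gene, p65 had peaks with LPS alone, 32.45 and 21.21, and none in the other groups.

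**Figure D3:**
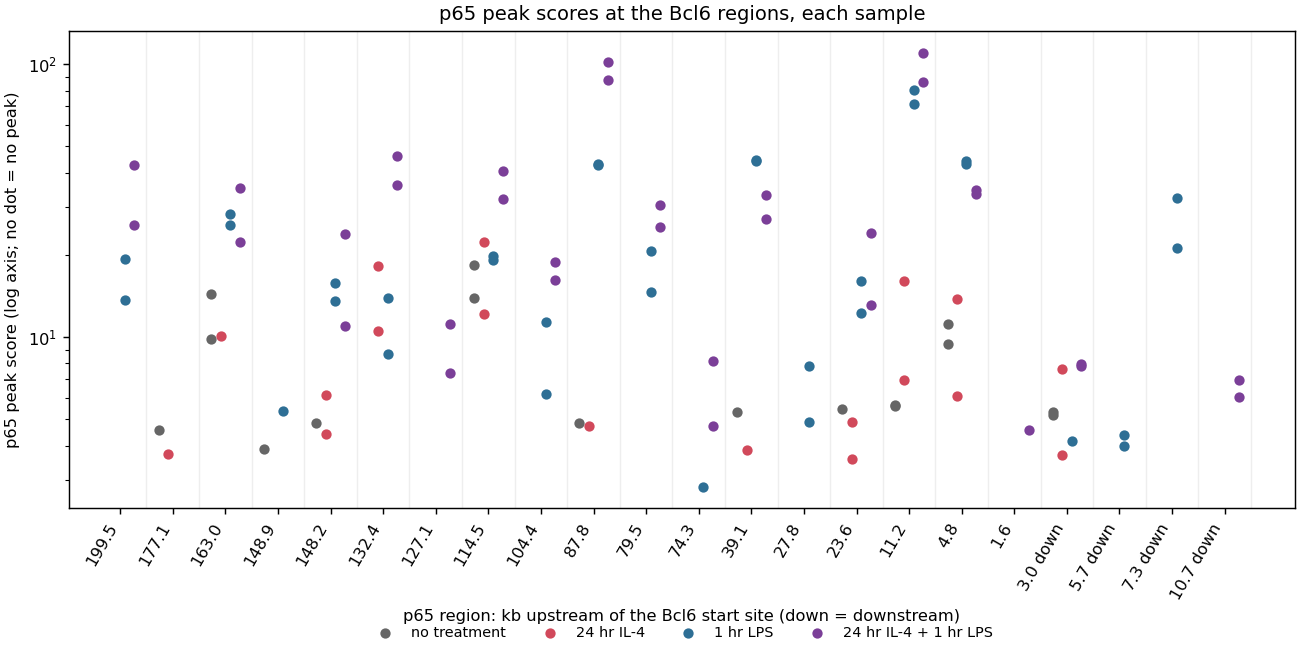
p65 peak score (y axis, log scale) of each sample at the 22 p65 regions assigned to Bcl6, ordered from the farthest upstream to the farthest downstream in kb (x axis), for no treatment (grey), 24 hr IL-4 (red), 1 hr LPS (blue) and both (purple), where a missing dot is a missing peak. The purple dots lie highest at 11.2 and 87.9 kb upstream, the blue ones at 11.2 kb. Labels give the middle of each p65 region, which can differ slightly from the middle of the site.

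The remaining p65 regions called higher with LPS alone lay 23.6, 27.9, 79.5, 104.4, 148.2 and 199.5 kb upstream, with scores between 4.88 and 20.68 under LPS. Of these, the regions at 79.5, 104.4 and 199.5 kb had no p65 peak without LPS, and were called higher with LPS after IL-4 as well. The site 27.9 kb upstream had its p65 peak with LPS alone, and RNAPII-pS2 at 177.1 kb had a peak of 4.31 and 5.68 without treatment and none in the other groups. A p65 region at 127.0 kb had peaks with both stimuli alone, 7.41 and 11.16. RNAPII-pS2 25.1 kb downstream, beyond the end of the gene, had no peak without treatment and 6.7 and 5.55 with LPS. RNAPII-pS5 at 114.5 kb had peaks with LPS alone, 6.96 and 11.3.

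With 24 hr of IL-4 and no LPS, the directions were mixed. RNAPII-pS5 was called higher in 3 of 9 regions and lower in 3, against 21.1% and 16.4% of all regions. RNAPII-pS2 was called higher in 3 of 12 and lower in 3, against 23% and 23.7%. p65 was called higher in 3 of 11 and lower in none, against 22.7% and 15.9%, and the 3 lay at 11.2, 132.4 and 148.2 kb. At 74.1 kb upstream, RNAPII-pS5 had no peak without treatment and 4.69 and 7.54 with IL-4, and RNAPII-pS2 no peak and 6.98 and 6.33. Both polymerase forms were called higher with IL-4 at 74.1 and 132.4 kb and within intron 1. RNAPII-pS2 was called lower at 39.0, 114.5 and 177.1 kb, and RNAPII-pS5 at 4.8 and 163.0 kb and beyond the end of the gene. At 114.5 kb RNAPII-pS2 went from 22.51 and 10.9 to 3.24 and 3.46.

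Under LPS, IL-4 pretreatment was accompanied by higher signal at some sites and lower at others. RNAPII-pS5 was called higher in 0 of 11 regions and lower in 2, against 26.7% and 17.6% of all regions. RNAPII-pS2 was called higher in 2 of 15 and lower in 2, against 23.9% and 15.4%. p65 was called higher in 5 of 19 and lower in 3, against 34.2% and 8.9%. Beside 132.4 kb, the site 74.1 kb upstream was called higher for 2 antibodies. There RNAPII-pS2 had 3.09 in 1 of 2 samples with LPS and 7.35 and 8.04 with both, and p65 had 2.83 in 1 of 2 and then 8.15 and 4.72. The other p65 regions called higher lay 3.0 and 10.7 kb downstream and 127.0 kb upstream, and those called lower 5.8 and 7.2 kb downstream and 27.9 kb upstream. The RNAPII-pS5 regions called lower lay 25.1 kb downstream (6.11 and 6.58, then 3.62 and 3.37) and 114.5 kb upstream, where no peak was left.

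LPS after IL-4 pretreatment was called higher in 4 of 11 RNAPII-pS5 regions and lower in 2, against 20.8% and 32.8% of all regions. For RNAPII-pS2 it was called higher in 5 of 13 and lower in 2, against 31.5% and 22%. For p65, 7 of 16 regions were called higher, against 47.1%, and none lower, against 6.8%. The sites at 11.2, 39.0 and 87.9 kb, called higher for at least 2 antibodies here, were also called higher with LPS alone. RNAPII-pS5 was called lower with LPS after IL-4 at 74.1 kb (4.69 and 7.54, then 3.2 in 1 of 2 samples) and at 132.4 kb.

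**Figure D4:**
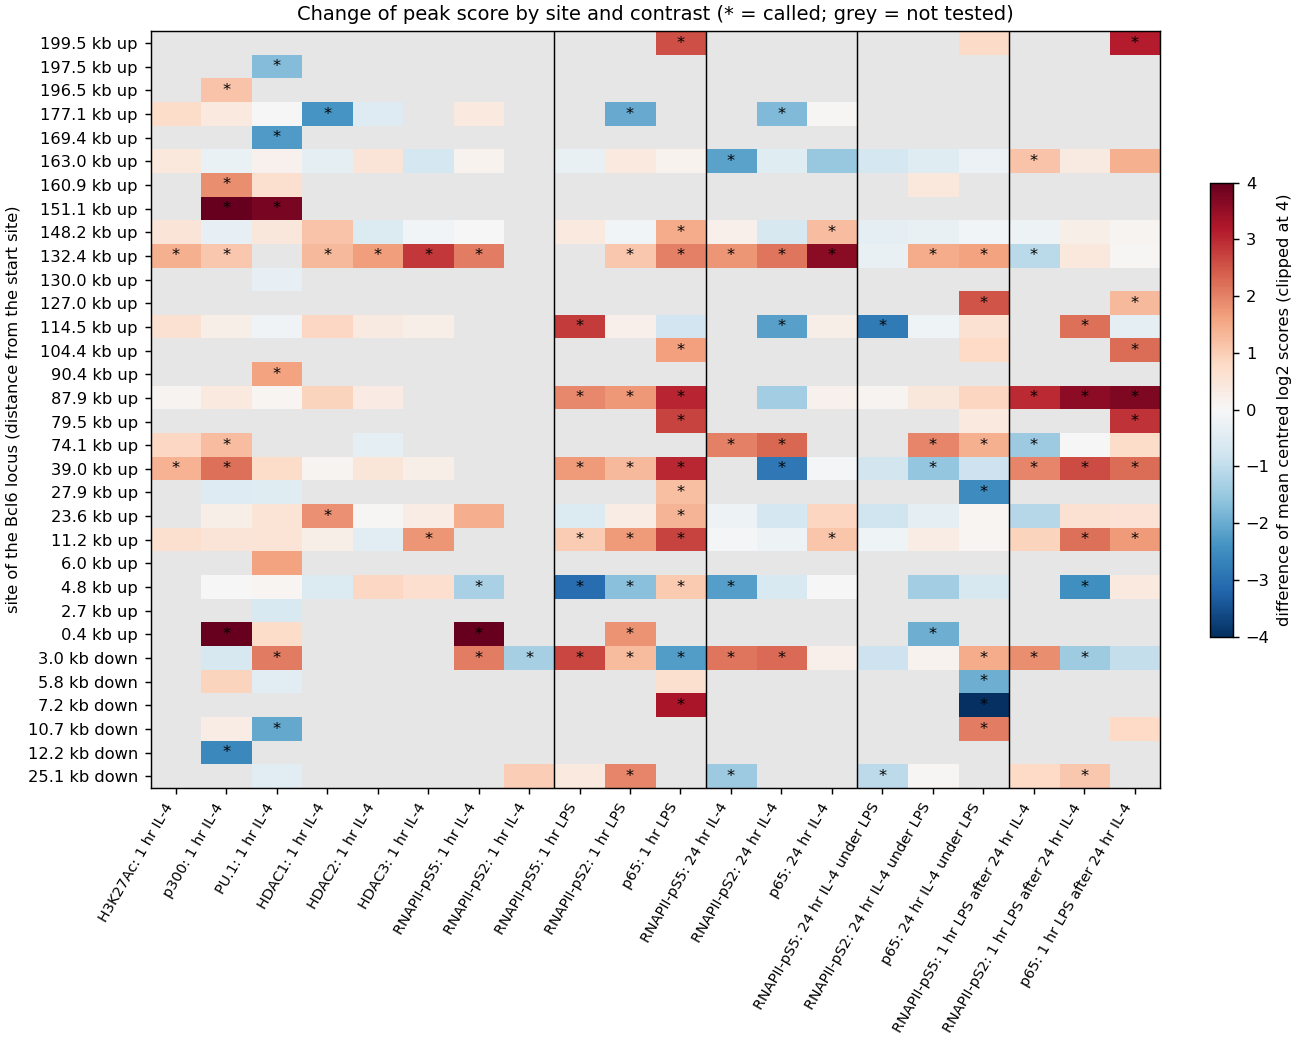
Difference of mean centred log2 score (colour, clipped at 4, red higher and blue lower) at each site of the Bcl6 locus (rows, by distance from the start site) for each antibody and contrast (columns), where an asterisk marks a called region and grey a region not tested. The row at 132.4 kb has calls for 8 antibodies over all contrasts and both directions. The row at 0.4 kb has its largest differences for p300 and RNAPII-pS5 with 1 hr IL-4, where untreated samples had no peak.

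In the order of its summed score, Bcl6 stood lowest with 24 hr IL-4 for both polymerase forms, and highest with LPS. For RNAPII-pS5 the sums were 40.89 and 53.42 with IL-4, 54.91 and 68.1 without treatment, 74.42 and 65.28 with both and 80.16 and 109.55 with LPS, and the groups without treatment and with both overlapped. For RNAPII-pS2 they were 104.44 and 121.89, 153.68 and 138.3, 254.81 and 236.79, and 253.36 and 253.45 in the same order, and the LPS groups overlapped. For p65 they were 49.05 and 78.81 without treatment, 89.55 and 69.15 with IL-4, 385.72 and 373.71 with LPS and 515.56 and 506.54 with both. The groups without LPS overlapped for p65, and the groups with LPS did not. p65 lists were longer with both stimuli, 36738 and 38955 peaks, and after centring on common genes the log2 difference between the LPS groups was -0.08, and the groups overlapped. After centring, the log2 differences with 24 hr IL-4 were -0.46 for RNAPII-pS5 and -0.30 for RNAPII-pS2, but with intergenic peaks left out the values turned to 1.96 and 2.39, since untreated samples then had no peak to sum. No summed score of Bcl6 was called in this experiment, and the centred differences with LPS alone were 0.94 (RNAPII-pS5), 0.57 (RNAPII-pS2) and 0.97 (p65).

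**Figure D5:**
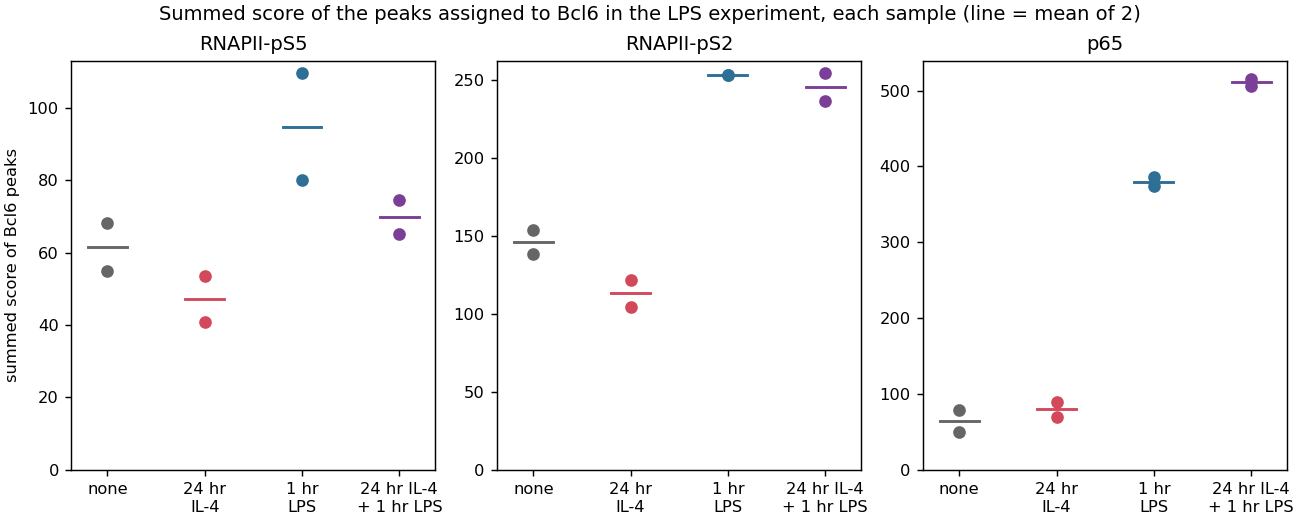
Summed score of the peaks assigned to Bcl6 (y axis, from 0, not centred) in each sample of the 4 treatments for RNAPII-pS5, RNAPII-pS2 and p65, with a line at the mean of 2. All LPS samples lie above all samples without LPS for RNAPII-pS2 and p65.

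Not all regions could be compared. Of the 133 regions of the 1 hr IL-4 experiment, counted for each antibody, 101 had a peak in at least 2 of 4 samples. Of these, 22 were called higher and 7 lower, at 17 sites, 5 of which had calls for at least 2 antibodies. Of the 58 regions of the LPS experiment, 32 to 45 could be compared in a contrast. There 25 regions were called higher and 4 lower with LPS alone, 9 and 6 with 24 hr IL-4, 7 and 7 with IL-4 under LPS, and 16 and 4 with LPS after IL-4. For a single antibody and direction, 4.75% to 22.4% of all regions were called with 1 hr IL-4. In the contrasts of the LPS experiment it was 6.8% to 53.5%. The pooled counts mix antibodies with unlike shares and show nothing beyond the comparisons given above for each antibody. Of the 29 regions called with 1 hr IL-4, 17 had no peak in a whole group, and such calls depend on the score given to a missing peak.

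The genes of BCL6 corepressors, partners and regulators were followed as a list of 18, of which 12 to 17 had a summed score that could be compared in a contrast. At 1 hr of IL-4, few were called in either direction: 1 of 15 for H3K27Ac (all genes 7.84%), 0 of 17 for p300 (16.4%), 3 of 16 for PU.1 (12.9%), 1 of 16 for HDAC1 (15%), 1 of 13 for HDAC2 (16.5%), 2 of 12 for HDAC3 (23.7%), 2 of 15 for RNAPII-pS5 (9.98%) and 3 of 13 for RNAPII-pS2 (20.1%). Their median log2 differences lay between -0.27 and -0.05, against -0.04 to 0.02 over all genes. Tbl1xr1, a subunit of the NCoR complex, was lower for H3K27Ac (1866.3 and 1841.5, then 909.8 and 896.9) and for RNAPII-pS5 (211.13 and 153.95, then 96.41 and 64.07). Its relative Tbl1x was lower for RNAPII-pS5 (17.54 and 14.17, then 7.79 and 6.24) and HDAC3 (32.91 and 27.82, then 24.68 and 13.67). Of the other members of that complex, Gps2 had PU.1 scores of 6.75 and 5.97 and no peak after IL-4, Ncor1 had a PU.1 score of 7.01 in 1 of 2 untreated samples and of 19.47 and 8.91 after IL-4, and Hdac3 was lower for HDAC1 (10.1 and 14.72, then 5.72 in 1 of 2). Irf4, which encodes an interferon regulatory factor of alternatively activated macrophages, was higher for PU.1 (175.15 and 82.44, then 295.2 and 304.8) and HDAC3 (18.44 and 6.44, then 31.68 and 36.61). Stat6 was lower for HDAC2 (55.26 and 35.65, then 17.54 and 21.88). For RNAPII-pS2, where labels and peak names disagree, Irf4 was lower (89.62 and 113.92, then 27.39 and 24.64), Mta3 lower (6.84 and 3.56, then 2.8 in 1 of 2) and Bach2 higher (5.41 and 6.38, then 12.59 and 15.37).

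In the LPS experiment more of the list was called, as more of all genes were. With LPS alone, 1 of 14 genes was called for RNAPII-pS5 (all genes 50.7%), 4 of 16 for RNAPII-pS2 (43.9%) and 8 of 14 for p65 (49.5%). With 24 hr IL-4 it was 3 of 14 (27.3%), 2 of 15 (32.1%) and 2 of 12 (32.1%). With IL-4 under LPS it was 8 of 15 (37.5%), 3 of 16 (27.3%) and 1 of 14 (29.8%), and with LPS after IL-4 it was 4 of 14 (42.1%), 2 of 16 (38.4%) and 8 of 14 (45.7%). For p65 with LPS alone, 7 genes were higher and 1 lower, with a median of 1.19 against 0.47 over all genes. Bcor, a corepressor of BCL6, went from 3.01 and 18.55 to 148.89 and 155.34, Tbl1x from no peak to 30.56 and 26.8, and Stat6 from 32.8 and 20.84 to 6.21 and 7.81. For RNAPII-pS2 with LPS alone, the called genes of largest change were lower, Gps2 (17.97 and 10.1, then 7.6 in 1 of 2), Stat6 (16.33 and 42.68, then 13.91 and 10.18) and Hdac3 (7.41 and 4.26, then 3.8 in 1 of 2). For RNAPII-pS5 it was Stat5b (9.22 and 4.18, then no peak).

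With 24 hr IL-4, Irf4 was higher for both polymerase forms, with 14.57 and 22.5, then 47.64 and 71.36, for RNAPII-pS5 and 42.08 and 13.01, then 53.7 and 53.72, for RNAPII-pS2. Stat5a was lower for both (15.76 and 13.33, then 4.48 and 7.61, and 19.48 and 10.67, then 7.74 and 4.44), and Stat3 for RNAPII-pS5 (14.17 and 17.92, then 5.07 and 6.02). For p65, Stat6 was lower (7.43 in 1 of 2 with IL-4), as was Mta3 (7.94 and 12.44, then 6.53 in 1 of 2). Under LPS, pretreated samples had higher Irf4 scores for RNAPII-pS5 (65.45 and 72.05, against 4.12 and 15.82) and RNAPII-pS2 (137.61 and 123.8, against 47.2 and 60.11). They also had higher scores of Stat5a (45.47 and 36.38, against 10.98 and 12.38) and Gps2 (19.05 and 10, against 7.6 in 1 of 2) for RNAPII-pS2, of Stat5b for RNAPII-pS5 (11.57 and 4.87, against no peak) and of Stat6 for p65 (22.17 and 20.4, against 6.21 and 7.81), and no Mta3 peak for RNAPII-pS5 (against 12.73 and 7.38). With LPS after IL-4, Stat5a was higher for RNAPII-pS5 (31.84 and 25.85) and RNAPII-pS2 (45.47 and 36.38), and Bcl6b, the closest relative of Bcl6, went from no peak to 8.4 and 16.44 and to 12.75 and 6.75. For p65, Tbl1x and Stat3 went from no peak to 57.22 and 61.42 and to 44 and 53.36, and Stat5b from 4.79 in 1 of 2 to 52.27 and 88.27.

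The neighbouring genes were counted in the same way. Lpp had 1179 peaks in the 56 lists, and its summed score was called higher in 1 and lower in 2 of 20 contrasts. On the other side, Rtp2 had 33 peaks, and of the further neighbours Masp1 had 131, Rtp1 75, Rtp4 176 and Sst 39. For RNAPII-pS5 with 1 hr IL-4, where the Bcl6 sum was called higher, Lpp differed by 0.62 on the log2 scale, Rtp1 by 0.05 and Rtp4 by 0.09, none of them called, and Masp1 was called lower with -1.10. Among 5517 genes that could be compared over the 28 group means, the genes whose centred summed score followed that of Bcl6 most closely were Nrg1 and Tmem243 (Pearson r of 0.84 each), Arg2 and Gm20125 (0.82 each) and Rps3a1 (0.79). The median r was 0.00, and the lowest -0.81. These means share libraries and centring, so the coefficients rank genes and were not tested.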

How the data were processed

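Bcl6 and the gene lists were chosen with earlier results of these data known. The authors aligned reads with BWA to mm10, called peaks in each sample with MACS2 (q-value of 0.01), or HOMER findPeaks for H3K27Ac (size 1000, minDist 2500), and assigned each to its nearest gene. The submitters' processing notes name BWA 0.7.10, SAMtools 0.1.19, HOMER 4.2 and MACS2 2.0.10. The deposited MACS2 scores appear to be −log10 of a p or q value, as inferred from the values, and the deposited H3K27Ac score is a signal, so scores were not compared between antibodies. The lowest score of each MACS2 list lay between 1.3 and 1.89, below the 2 that the stated cut-off gives on that scale. The unit of these scores therefore remains uncertain. Depth is unknown.

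Peaks overlapping by at least 1 bp were merged into regions per antibody and experiment, and into sites over all. Summed scores were centred on genes with peaks in all samples. Calls needed a peak in at least 2 of 4 samples, non-overlapping groups and a 2-fold difference. Groups came from the labels. Values of every sample are given for promoter regions, regions called for at least 2 antibodies and those of highest score. Named genes were Bcl6, the 5 most like it, at most 3 called partner genes per contrast by size of change, and neighbours, and 1 result on a partner gene is not reported here. Motifs were read in windows of 200 bp. Alternatives were no centring, a fold of 1.5, a gap of 500 bp, a higher floor, shorter lists, other peaks in the sum, windows of 300 bp, and each sample left out. Python 3.11.15, pandas 2.3.3 and numpy 2.4.6 were used.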

Additional observations from a re-analysis of the deposited data

Results flagged for a closer look

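In the LPS experiment, the change with LPS was compared between BMDMs with and without IL-4 pretreatment, and the change with IL-4 between BMDMs with and without LPS, in 61 such comparisons of a region in all. In 1 of them, the centred values moved in opposite directions in all samples. RNAPII-pS2 148.0 kb upstream of Bcl6 changed by -0.12 on the centred log2 scale with LPS alone and by 0.23 with LPS after IL-4, a difference of 0.35. The deposited scores were 20.17 and 18.08 without treatment, 19.93 and 20.18 with LPS, 10.65 and 12.87 with IL-4, and 16.81 and 14.5 with both, so that before centring the scores with and without LPS alone overlapped and the opposite direction rests on the centring. The difference was not tested, and neither change was called.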

How the results depend on the processing

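Counts of called Bcl6 regions are given in the order 1 hr IL-4, LPS alone, 24 hr IL-4, IL-4 under LPS and LPS after IL-4, where they were 29, 29, 15, 14 and 20. With the upper 50% of each list they were 8, 9, 4, 4 and 7, and with a missing peak at 4 times the lowest score 11, 14, 6, 5 and 10. A fold of 1.5 gave 22 for IL-4 under LPS. Leaving out each sample gave 20 to 30, 16 to 26, 10 to 15, 9 to 17 and 11 to 22. The counts moved by over 1.5 times without either LPS sample (16 each, LPS alone), without LPS replicate 2 (9, IL-4 under LPS), and without replicate 1 (11) or 2 (12) of IL-4 with LPS (LPS after IL-4), since a region with peaks in 1 group alone then has too few peaks to be compared. Of the called regions, 17, 14, 8, 7 and 8 had no peak in a whole group, and 3, 7, 2, 3 and 5 stayed called under no centring, the higher floor, the upper lists and every sample left out. The 3 for 1 hr IL-4 are p300 regions 12.2 kb downstream and 39.0 and 132.4 kb upstream. Regions with no peak in a whole group could not be among those that stayed, since a left-out sample leaves too few peaks to compare. This holds for the called promoter regions. The promoter p300 region and the RNAPII-pS5 region of 27.16 and 41.75 stayed called with no centring, the higher floor and the upper lists. The other promoter RNAPII-pS5 region was not kept with the upper lists.

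Of 179 alternative values of the summed-score differences, 166 kept their direction, among them 80 of 80 with a sample left out. These 80 say little, since leaving out 1 sample can hardly turn a difference between groups that do not overlap. The groups overlapped only for HDAC1 with 1 hr IL-4 and for p65 with IL-4 under LPS. The 13 values that turned came from intergenic peaks left out (6 of 18), the highest peak alone (3 of 20), no centring (2 of 20), the upper lists (1 of 20) and the exchange of RNAPII-pS2 treatments. That exchange turned 0.55 to -0.55, and without centring the p300 difference was 1.14 against 0.29. Intergenic peaks left out gave no value in 2 contrasts. The upper lists held 361 of the 673 Bcl6 peaks. With windows of 300 bp, STAT matches went from 10.8% to 29.7% of PU.1, 15.4% to 30.8% of p300 and 14.3% to 28.6% of HDAC1 windows. No paired analysis was possible because the values come from no test into which a replicate block could enter. Unknown depth, 2 samples a group and scores that stand for missing peaks limit all values.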
